A study of Mus musculus with 6 samples.

Results

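The cilium and axoneme gene families described here are the protein-coding genes whose symbols consist of Cfap, Dnah, Ift, Bbs, Nphp or Tctn followed by a number and at most 1 letter. The rule found 59 of the 43346 genes in the deposited count table. They fall into a motile axoneme class of 32 genes (17 Cfap and 15 Dnah) and a transport and primary cilium class of 27 genes (14 Ift, 8 Bbs, 3 Nphp and 2 Tctn). The symbol Cfap46 belongs to 2 of the genes, so the 59 genes carry 58 symbols. Of the 59, 52 had enough counts to be tested, 25 in the motile class and all 27 in the transport class.

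A cilium is a microtubule-based projection of the cell surface. Motile cilia and sperm tails carry dynein arms, whose motor subunits are the Dnah heavy chains, and accessory axonemal proteins, many of which are named Cfap. Primary cilia lack these motors and serve as sensory antennae. Both kinds are built by intraflagellar transport (Ift proteins), supplied with membrane cargo by the BBSome (Bbs proteins) and gated at their base by the transition zone, to which nephrocystins (Nphp) and tectonics (Tctn) belong. In the liver, cholangiocytes, the cells lining the bile ducts, carry a primary cilium that reaches into the bile, whereas mature hepatocytes carry none.

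The RNA came from whole livers of mice fed the FFC diet, used here as a dietary model of metabolic dysfunction-associated steatohepatitis; the labels do not spell the letters out. All mice also received an adeno-associated virus of serotype 8 carrying a short hairpin RNA (shRNA), so diet and virus are common to both groups. In 3 libraries, numbered 2, 3 and 2600, the shRNA is directed against S100a11, which encodes an S100-type calcium binder, and the genotype label reads knockdown (KO). In the other 3, numbered 28, 30 and 31, it is a scrambled control. Strain, sex, age, dose and the promoter driving the shRNA are not given in the labels. Nothing there says that the libraries come from separate animals, and the p-values then reflect only how these libraries vary, which may be technical. Total counts ran from 53517387 to 78091845 per library.

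S100a11 itself stood at 16.0, 3.55 and 3.41 CPM (counts relative to the scaled library total) in libraries 2, 3 and 2600. In scrambled libraries 28, 30 and 31 it stood at 15.9, 22.9 and 30.0 CPM. Library 2 therefore lay level with scrambled library 28, against its label, and the groups overlapped. A chi-square of raw counts per gene placed library 2 nearer scrambled libraries 28, 30 and 31 (193, 223 and 158). Its values against libraries 3 and 2600 were 235 and 349, and libraries 3 and 2600 differed from each other by 147. A few abundant genes can dominate this measure, so it does not show likeness over most genes. The non-coding gene Gm26917 took 3.99% of counts in library 2, 6.44% in library 3 and 10.8% in library 2600. In the scrambled libraries Gm26917 took 3.16% to 4.42%. The log2 change of S100a11 was -1.57 ± 0.56 (SE, edgeR adjusted p = 0.0951), and -2.75 without library 2 (edgeR adjusted p = 0.000441). An exact two-sided permutation test gave p = 0.2, where 0.1 is the smallest that 3 against 3 libraries allow. Directions below are those of the libraries labelled S100a11 shRNA, called libraries 2, 3 and 2600, against the scrambled libraries. A gene is said to have fallen or risen where its edgeR quasi-likelihood test had an adjusted p under 0.05 over all 19352 genes tested.

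Promoter sequences are shown first for 4 members that fell and whose upstream region holds an X-box, the palindromic element recognised by the RFX transcription factors that act on many cilium genes. Promoters were taken from RefSeq (build GRCm38.p6, the build called mm10), as 250 bases before to 50 bases after each gene start, and 49 of the 58 member symbols had one. The searched forms were GTTNCNNNGNAAC and GTTNCNNNNGNAAC, each of which reads the same on both strands. These letters were settled on after the member promoters had been read, so the counts are a description. Each sequence runs 5′ to 3′ on the strand of its gene and stops before the gene start of both RefSeq and the deposited table, and capitals mark the X-box match.
Cfap44: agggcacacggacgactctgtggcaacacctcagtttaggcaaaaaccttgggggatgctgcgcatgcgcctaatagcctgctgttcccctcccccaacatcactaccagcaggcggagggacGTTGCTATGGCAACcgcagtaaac
Dnah6: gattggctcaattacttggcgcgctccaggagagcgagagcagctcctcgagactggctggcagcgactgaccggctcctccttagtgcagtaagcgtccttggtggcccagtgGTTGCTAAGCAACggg
Dnah7c: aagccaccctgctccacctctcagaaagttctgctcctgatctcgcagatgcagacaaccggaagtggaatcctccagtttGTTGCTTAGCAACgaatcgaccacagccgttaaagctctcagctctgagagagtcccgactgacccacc
Tctn3: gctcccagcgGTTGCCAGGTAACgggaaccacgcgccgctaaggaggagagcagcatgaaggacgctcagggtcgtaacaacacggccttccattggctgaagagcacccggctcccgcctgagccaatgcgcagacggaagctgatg

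The stretch of Cfap44 is chr16:44394649-44394795 (plus strand), that of Dnah6 chr6:73221652-73221781 (minus strand), that of Dnah7c chr1:46425368-46425517 (plus strand) and that of Tctn3 chr19:40612234-40612381 (minus strand). The matches lie at positions -27 to -14, -36 to -24, -69 to -57 and -140 to -128 from the RefSeq starts, with -1 the base before the start. Dnah6 and Dnah7c both hold the form with 3 free bases in the middle, but with different letters there. The same 13 letters as in Dnah7c stand in the promoters of Dnah7b and Dnah7a, the other members of the Dnah7 group. In Dnah7b and in Ift57 the match lies inside the gene as the deposited table places it, so their stretches are not shown.

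Either X-box form was present in a promoter of 13 of the 49 member symbols, against 652 of all 32851 promoters (1.985%). Members were counted by symbol and the background by promoter, so the shares differ in unit. In the motile class 9 of 27 symbols had an X-box, Dnah7a, Dnah7b and Dnah7c with the same letters, and in the transport class 4 of 22. Among the members that fell it was found in Cfap44, Cfap61, Dnah6, Dnah7b and Dnah7c, which are 5 of the 10 motile members that fell, and in Ift57 and Tctn3, 2 of the 5 in the transport class. It was also found in members that did not change by the test, among them Cfap45, Dnah9, Bbs7 and Tctn1. A forkhead sequence, TGTTTAC on either strand, was in a promoter of 3 of the 49 member symbols (Cfap20, Cfap43 and Dnah17). It was in 3.65% of all promoters, and none of the members that fell held it. A match is only a run of letters and says nothing about binding in these livers.

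Many motile axoneme members were lower in the libraries labelled S100a11 shRNA, and fewer transport members were. Of 25 tested motile members, 10 fell, 2 rose and 13 did not pass the test; of 27 transport members, 5 fell, none rose and 22 did not pass. Over all tested genes 8.28% fell and 5.82% rose, so 40% and 18.5% of the motile and transport members fell against that background. The median log2 change was -0.91 in the motile class, -0.26 in the transport class and 0.04 over all tested genes. The log2 change was negative in 19 of 25 motile and in 18 of 27 transport members. Libraries 2, 3 and 2600 all lay below every scrambled library in 12 motile and 11 transport tested members, against 18.1% of all tested genes, and above them in 3 motile members and 1 transport member, against 16.5% (34.7% in either direction). The count filter needs enough counts in only as many libraries as 1 group holds. A gene high in 1 group alone can therefore be tested. Among called members, Cfap44, Cfap61 and Dnah6 entered only with the scrambled libraries, and Dnah3 only with libraries 2, 3 and 2600. Their direction is thus tied to their being tested. With no filter beyond 1 count in all, 30 motile members were tested, of which 11 fell and 2 rose. Members are not replicates, so the difference between the classes was not tested. In whole-liver RNA fewer cells of a type and less RNA per cell cannot be told apart.

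**Figure D1:**
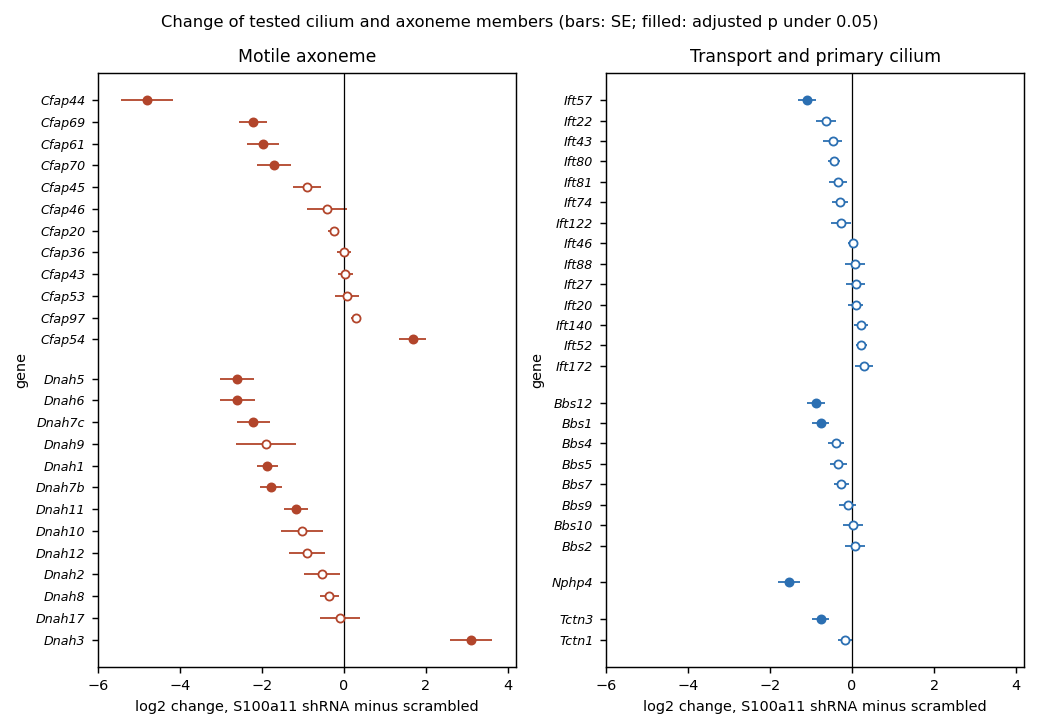
Log2 change (libraries labelled S100a11 shRNA minus scrambled, horizontal axis) of 50 of the 52 tested members, grouped by symbol family, with bars of 1 standard error and filled points where the adjusted p was under 0.05. In the motile panel 12 of the 13 Dnah points lie left of 0 and Dnah3 lies at 3.10, whereas 7 Ift points lie on each side of 0, from -1.09 (Ift57) to 0.30 (Ift172).

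Both classes differ in abundance, which the plot of change against level shows. Per length, the median level in the scrambled libraries was 0.551 TPM (counts per base of gene length, scaled to a common sum) for tested motile members and 6.92 TPM for transport members. In libraries 2, 3 and 2600 these medians were 0.185 and 4.88 TPM. The median over all tested genes was also lower there, at 7.73 TPM against 10.2 TPM in the scrambled libraries. TPM do not use the library scaling that CPM use, so a lower TPM in libraries 2, 3 and 2600 need not be a lower CPM. Ift20, for example, had means of 24.1 against 29.1 TPM but 16.6 against 15.6 CPM. Genes at the level of the motile members fell more often than the 8.28% of all tested genes. Of 4876 tested genes between 0.515 and 4.82 CPM, the quartiles of the motile members, 664 fell (13.6%) and 141 rose. No such share was taken at the level of the transport members. Without library 2, 11 motile members fell and 2 rose, 7 transport members fell and 1 rose, and the class medians were -1.03 and -0.20. Without scrambled library 30 the motile median was -0.55, with 7 motile members lower and 1 higher, and only 1 transport member lower. The whole table shifted in the same way. With all libraries 1602 genes fell and 1126 rose, without library 2 2370 fell and 1806 rose, and without scrambled library 30 503 fell and 221 rose.

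**Figure D2:**
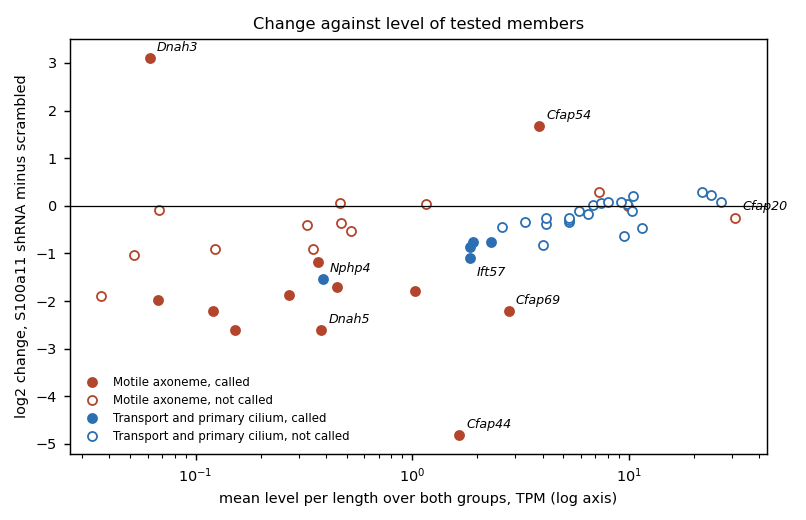
Mean level per length over both groups (TPM, log axis) against the log2 change of each tested member (vertical axis), with filled points where the adjusted p was under 0.05. Most motile members lie at the left, below 1 TPM, and most transport members lie to the right of it with changes near 0.

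Among outer-arm dynein heavy chains, the motors that set beat frequency, Dnah5 (ENSMUSG00000022262, chromosome 15, 28203752 to 28472045) stood at 0.542, 0.352 and 0.955 CPM in libraries 2, 3 and 2600. In scrambled libraries 28, 30 and 31 it stood at 2.59, 5.32 and 3.04 CPM. Every scrambled library was above every other, and Dnah5 fell by 2.61 ± 0.41 on the log2 scale (edgeR adjusted p = 0.0071). Dnah11, a second heavy chain of the airway outer arm, stood at 1.05, 1.12 and 1.52 CPM against 2.14, 3.76 and 2.37 CPM. The groups did not overlap, and it fell by 1.17 ± 0.29 (edgeR adjusted p = 0.0321). The call of Dnah11 was lost without library 3, without scrambled library 30 or without scrambled library 31 (edgeR adjusted p from 0.0655 to 0.135). Dnah9, the partner of Dnah5 in the distal part of airway cilia, stood at 0.155, 0.048 and 0.0455 CPM against 0.149, 0.625 and 0.231 CPM. Library 2 and scrambled library 28 were level, and the log2 change of -1.90 ± 0.73 did not pass (edgeR adjusted p = 0.118). Dnah8 and Dnah17, outer-arm chains best known from sperm, had log2 changes of -0.36 and -0.09, with overlapping groups.

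Of 8 tested inner-arm heavy chains, which shape the bend of the cilium, 4 fell and 1 rose, beside 2 of 5 outer-arm chains that fell. Of all tested genes 8.28% fell and 5.82% rose. Dnah1 (ENSMUSG00000019027, chromosome 14, 31260375 to 31323896) stood at 0.620, 0.464 and 0.569 CPM in libraries 2, 3 and 2600. In the scrambled libraries it stood at 1.93, 1.95 and 2.14 CPM. The 2 sets of values were tight and far apart, and the fall was 1.86 ± 0.25 (edgeR adjusted p = 0.00463). Dnah6 stood at 0.124, 0.160 and 0.364 CPM against 1.07, 1.61 and 1.04 CPM. Library 2600 was the highest of its group, yet below every scrambled library, and the fall was 2.60 ± 0.42 (edgeR adjusted p = 0.00767).

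Dnah7b, the most abundant of the Dnah genes per length (1.69 ± 0.43 TPM, SD, n = 3 scrambled libraries), stood at 2.40, 3.23 and 4.66 CPM against 11.4, 14.3 and 9.56 CPM. The groups lay well apart, and it fell by 1.79 ± 0.27 (edgeR adjusted p = 0.00608). Its neighbour on chromosome 1, Dnah7c, stood at 0.201, 0.176 and 0.205 CPM against 0.832, 1.28 and 0.612 CPM. That is 9 to 13 counts per library in the first group, and the fall was 2.21 ± 0.41 (edgeR adjusted p = 0.0115, and 0.0576 without library 3). Dnah7b, Dnah7c and Dnah7a are close copies: 38.8% of the 50-base words of the longest Dnah7c transcript also occur in that of Dnah7b. How their shared reads were divided is therefore uncertain.

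Dnah3 was the exception among the heavy chains. It stood at 0.356, 0.687 and 0.773 CPM in libraries 2, 3 and 2600, and at 0.104, 0.0581 and 0.0462 CPM in the scrambled libraries, where it rested on 7, 4 and 4 counts. The groups did not overlap, and it rose by 3.10 ± 0.51 on the log2 scale (edgeR adjusted p = 0.00786). Of its annotated exon bases 10.5% also belong to exons of Lyrm1 on the opposite strand, which stood at 2.22 and 1.67 CPM (group means) and did not pass the test. Whether reads of Lyrm1 entered the Dnah3 count was not tested, since the strand setting of the counting is not given.

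The remaining inner-arm chains did not pass. Dnah10 and Dnah2, which pair in the double-headed inner arm, had log2 changes of -1.03 ± 0.51 and -0.54 ± 0.44. Dnah2 stood at 1.39, 1.55 and 4.55 CPM against 3.45, 4.58 and 2.63 CPM, so that library 2600 lay among the scrambled libraries. Dnah12 had a change of -0.90 ± 0.44, also with overlapping groups. Summed over all 15 Dnah genes the level was 9.60, 11.5 and 17.1 CPM in libraries 2, 3 and 2600 against 28.6, 38.6 and 25.2 CPM, a 2.42-fold lower mean. Library 2, in which S100a11 was level with scrambled library 28, had the lowest sum of the 6.

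**Figure D3:**
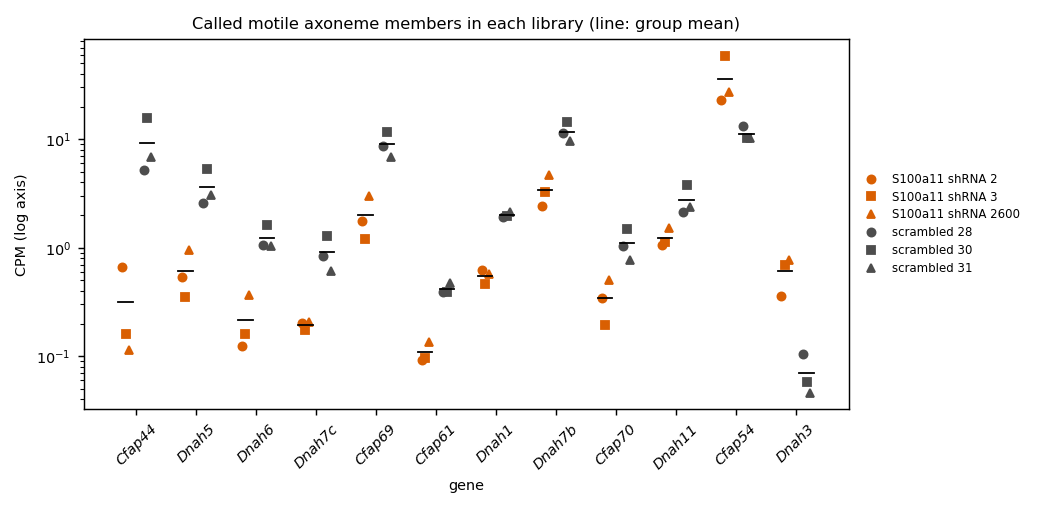
Level in CPM (log axis) of the 12 motile members that passed the test, with 1 point per library and a line at each group mean. For the first 10 genes all points of libraries 2, 3 and 2600 lie below those of the scrambled libraries, and for Cfap54 and Dnah3 they lie above.

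The Cfap genes moved in both directions. Cfap44 (ENSMUSG00000071550, chromosome 16, 44394796 to 44482428), a tether of an inner dynein arm, stood at 0.666, 0.160 and 0.114 CPM in libraries 2, 3 and 2600. In the scrambled libraries it stood at 5.20, 15.9 and 6.92 CPM. Its fall of 4.81 ± 0.63 on the log2 scale (edgeR adjusted p = 0.00449) was the largest of any member. Library 2 was the highest of its group, and without it the change was -6.07; without scrambled library 30, the highest of all, it was -4.19. Its tether partner Cfap43 did not follow: it stood at 4.48, 5.23 and 4.18 CPM against 3.94, 4.93 and 4.69 CPM, a log2 change of 0.04 ± 0.19.

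Cfap69, associated with the central pair of microtubules, stood at 1.75, 1.22 and 3.02 CPM against 8.65, 11.8 and 6.90 CPM. The groups were separate, and the fall was 2.21 ± 0.34 (edgeR adjusted p = 0.00668). Cfap61, of the complex at the base of the radial spokes, stood at 0.0929, 0.0959 and 0.136 CPM, 6 counts in each of libraries 2, 3 and 2600, against 0.386, 0.392 and 0.474 CPM. Its fall was 1.97 ± 0.40 (edgeR adjusted p = 0.0152). Cfap70, linked to the outer arm, stood at 0.341, 0.192 and 0.500 CPM against 1.04, 1.48 and 0.762 CPM, and fell by 1.70 ± 0.41 (edgeR adjusted p = 0.0284). Without library 3 or scrambled library 30 neither gene passed. Nor did Cfap61 without scrambled library 31 or Cfap70 without scrambled library 28 (edgeR adjusted p from 0.058 to 0.114 in these fits). Fewer genes of the whole table were called in these fits too, against 2728 with all libraries. The number was 1012 without library 3, and 1538, 724 and 1090 without scrambled libraries 28, 30 and 31.

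Cfap54, a protein of the central pair, was the Cfap gene that rose. It stood at 22.8, 58.2 and 27.2 CPM in libraries 2, 3 and 2600 against 13.3, 10.2 and 10.4 CPM. Library 3 was far above the other two, but the groups did not overlap, and the rise was 1.68 ± 0.33 on the log2 scale (edgeR adjusted p = 0.0139). The call was lost without scrambled library 30 or 31 (edgeR adjusted p = 0.066 and 0.0522). Cfap20, at the junction of the doublet microtubules, was the most abundant motile member per length (24.4 ± 2.47 against 37.6 ± 2.07 TPM, SD, n = 3 each). It stood at 14.7, 14.2 and 14.1 CPM against 18.3, 16.7 and 16.2 CPM, just below the scrambled range, and its log2 change of -0.25 ± 0.13 did not pass (edgeR adjusted p = 0.25).

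Of the other tested Cfap genes, Cfap45, a protein inside the doublet microtubules, had non-overlapping groups and a change of -0.91 ± 0.34 that did not pass (edgeR adjusted p = 0.112). Cfap97 also had separate groups, at 16.5 to 16.8 CPM against 13.0 to 14.5 CPM, and a change of 0.29 ± 0.13. Cfap36, Cfap46 and Cfap53 had overlapping groups, with changes of 0.00, -0.41 and 0.06. The summed level of all motile genes overlapped between groups, at 84.9 to 119.7 CPM against 99.3 to 127.1 CPM. A further 7 motile genes were too sparse to test: Cfap52, Cfap57, Cfap221, Dnah7a, Dnah14, Cfap58 and the other gene of the symbol Cfap46. Cfap58 and that Cfap46 gene held 0 counts in every library, and Cfap52 held 2, 0 and 0 counts against 7, 14 and 13.

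Within each group, the same library was often the highest for the fallen motile members, though the order below it varied. In 8 of the 10, library 2600 was the highest of libraries 2, 3 and 2600, and library 2 was in the other 2. In 8 of the 10, scrambled library 30 was the highest of its group, and library 31 in the other 2.

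In the transport class the intraflagellar transport genes were nearly level between groups. Of 14 Ift genes 1 fell (7.14%, near the 8.28% of all tested genes) and none rose. Of their log2 changes 7 were negative and 7 positive, with a median of -0.12. The gene that fell was Ift57, a peripheral subunit of the anterograde IFT-B complex (ENSMUSG00000032965, chromosome 16, 49699233 to 49765126). It stood at 1.46, 1.12 and 1.23 CPM in libraries 2, 3 and 2600 against 2.68, 2.78 and 2.69 CPM. The scrambled values were nearly equal and well above the others, and the fall was 1.09 ± 0.22 (edgeR adjusted p = 0.014). Without library 3, scrambled library 30 or scrambled library 31 it did not pass (edgeR adjusted p from 0.0558 to 0.0677).

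Ift80, of the same complex, stood at 11.5, 10.6 and 9.66 CPM against 14.9, 14.7 and 13.6 CPM. The groups were separate, but the change of -0.44 ± 0.14 did not pass (edgeR adjusted p = 0.0774, and 0.0341 without library 2). Ift20, which carries cargo from the Golgi and was the most abundant Ift gene per length, stood at 24.1 ± 5.92 against 29.1 ± 4.39 TPM (SD, n = 3 each). In CPM it stood at 19.3, 16.6 and 13.8 against 15.1, 13.3 and 18.5, a complete overlap. Its change of 0.08 ± 0.18 turned negative with upper-quartile factors (-0.007), with library totals (-0.26) and without library 2 (-0.07) or scrambled library 30 (-0.02). Ift172, a large IFT-B subunit, stood at 35.5, 56.7 and 66.4 CPM against 47.0, 42.8 and 39.3 CPM. Libraries 3 and 2600 were above and library 2 below all scrambled libraries, and the change was 0.30 ± 0.22. None of the 3 IFT-A genes of retrograde transport passed (Ift43, Ift122 and Ift140, from -0.47 to 0.21).

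**Figure D4:**
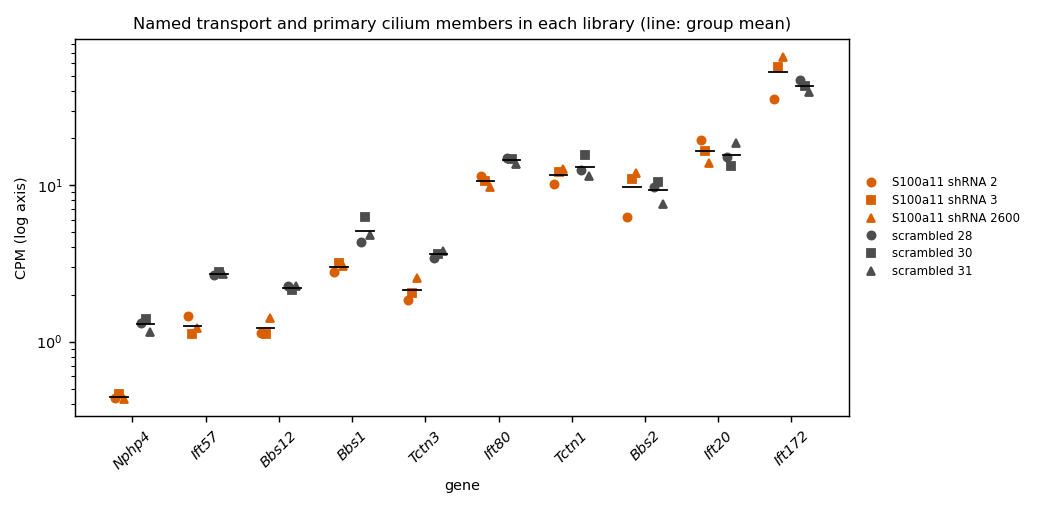
Level in CPM (log axis) of 10 transport and primary cilium members, with 1 point per library and a line at each group mean. The first 5 genes passed the test and have all points of libraries 2, 3 and 2600 below the scrambled points; from Tctn1 to Ift172 the groups overlap.

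Of the 8 Bbs genes 2 fell (25%, against 8.28% of all tested genes). Bbs1, a BBSome subunit, stood at 2.77, 3.20 and 3.02 CPM against 4.31, 6.24 and 4.78 CPM, and fell by 0.77 ± 0.21 (edgeR adjusted p = 0.041). Bbs12, a chaperonin-like protein needed to assemble the BBSome, stood at 1.13, 1.12 and 1.41 CPM against 2.26, 2.14 and 2.25 CPM, and fell by 0.87 ± 0.22 (edgeR adjusted p = 0.0336). For both genes the groups were separate. Neither call held without library 3 or without any 1 of the scrambled libraries (edgeR adjusted p from 0.0603 to 0.186), and that of Bbs1 was lost without library 2600 as well (edgeR adjusted p = 0.0719). Bbs4 and Bbs5 also had separate groups, with changes of -0.39 ± 0.20 and -0.34 ± 0.20 that did not pass. Bbs2, the most abundant Bbs gene per length (6.59 ± 1.67 against 8.29 ± 1.65 TPM, SD, n = 3 each), stood at 6.30, 10.9 and 11.9 CPM against 9.76, 10.5 and 7.54 CPM. Its log2 change of 0.07 ± 0.25 was negative in 5 of the alternative settings.

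At the transition zone, Nphp4 gave the firmest change of the transport class. This nephrocystin (ENSMUSG00000039577, chromosome 4, 152476706 to 152563183) stood at 0.434, 0.464 and 0.432 CPM in libraries 2, 3 and 2600 against 1.32, 1.40 and 1.16 CPM. Both sets were tight, and it fell by 1.53 ± 0.26 (edgeR adjusted p = 0.00904), a call kept on leaving out each library in turn.

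Tctn3, a tectonic, stood at 1.86, 2.05 and 2.55 CPM against 3.45, 3.65 and 3.81 CPM. The groups were separate, and it fell by 0.77 ± 0.21 (edgeR adjusted p = 0.0411). The call was lost on leaving out any library other than 2600, with an edgeR adjusted p from 0.0526 to 0.144. Tctn1 had overlapping groups and a change of -0.17 ± 0.17; 19.0% of its exon bases also belong to Hvcn1 on the opposite strand, which fell.

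The partners of these families were taken from lists of cilium genes outside the 6 symbol groups. They moved as follows, beside 8.28% of all tested genes that fell and 5.82% that rose. Of 8 tested genes of the dynein arms and their docking complexes 4 fell and none rose (median log2 change -1.24). Ccdc114, a docking-complex protein that anchors the outer arm, stood at 1.27, 1.23 and 2.27 CPM against 4.49, 7.21 and 5.05 CPM and fell by 1.83 ± 0.30 (edgeR adjusted p = 0.00802). Ccdc103 and Ttc25, also of arm attachment, fell by 2.07 and 1.32 (edgeR adjusted p = 0.0213 and 0.0448), but Ccdc103 lost its call without any 1 library other than 2, and Ttc25 without any 1 library or with voom. Of 26 tested genes of the radial spokes, nexin links, central pair and tektins 7 fell and none rose (median -0.67). Enkur, a protein of the axoneme, fell by 2.75 ± 0.39 (0.124, 0.224 and 0.273 CPM against 1.17, 1.83 and 1.10, edgeR adjusted p = 0.00539). Ccdc39, the ruler that spaces the arms, fell by 1.97 ± 0.28 (edgeR adjusted p = 0.00508), with 16.9% of its exon bases shared with the abundant opposite-strand gene Ttc14. Spef2, of the central pair, fell by 1.81 ± 0.37 (edgeR adjusted p = 0.0162), a call lost without library 3, scrambled library 30 or scrambled library 31.

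Of 11 tested cytoplasmic factors that preassemble dynein arms 1 fell (9.09%, near the 8.28% of all tested genes) and none rose, with a median log2 change of 0.13. The 1 that fell, Lrrc6, stood at no more than 0.334 CPM in any library (edgeR adjusted p = 0.0441), and the call was lost without any 1 library, without the count filter, with protein-coding genes only, with DESeq2 and with voom. Dyx1c1 and Pih1d1, next by p, had changes of -1.03 ± 0.32 and 0.39 ± 0.14 that did not pass. Of the exon bases of Dyx1c1 59.2% are shared on the same strand with Gm44503, which stood at 61.1 and 57.7 CPM (group means), so the value of Dyx1c1 is uncertain.

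Of 9 tested genes of the multiciliated cell programme 4 fell (44.4%, against 8.28% of all tested genes) and none rose (median -0.74). Of their log2 changes 6 were negative and 3 positive. Foxj1, the forkhead regulator of motile ciliogenesis, stood at 0.945, 0.288 and 1.41 CPM in libraries 2, 3 and 2600 against 4.62, 7.30 and 6.69 CPM. Every scrambled value was above every other, and the fall was 2.86 ± 0.44 (edgeR adjusted p = 0.00676). Lrriq1 and Capsl, transcripts typical of ciliated epithelium, fell by 4.41 ± 0.47 and 3.13 ± 0.48 (edgeR adjusted p = 0.003 and 0.00667). Mcidas and Gmnc, which start the programme of multiciliated cells, held 0 counts in all 6 libraries, as did Sntn and Fam183b. Rfx2 and Rfx3, RFX factors of ciliated cells, had changes of 0.24 and -0.14 that did not pass. Ccno and Ccdc67, also of this list, lay higher in libraries 2, 3 and 2600, with groups that did not overlap. Their changes of 0.89 ± 0.35 and 0.40 ± 0.26 did not pass (edgeR adjusted p = 0.125 and 0.346).

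For the non-motile machinery the counts stand beside 8.28% of all tested genes that fell and 5.82% that rose. Of 22 tested genes of intraflagellar transport and its motors 4 fell and none rose (median -0.38). They included Ttc21a, Tulp3 and Ttc26, which fell by 2.12, 0.83 and 1.37 (edgeR adjusted p = 0.0156, 0.0212 and 0.0279). Each of these 3 calls was lost without scrambled library 30, those of Tulp3 and Ttc26 also without library 3 or scrambled library 31, and that of Ttc26 also without library 2600 or scrambled library 28. Of 18 tested BBSome and ciliary cargo genes none fell and 1, Rab3ip, rose by 0.52 ± 0.13 (edgeR adjusted p = 0.0299). The Rab3ip call was lost with upper-quartile factors, with library totals, and without any 1 library other than 2. Of 20 tested transition zone genes 3 fell and none rose (median -0.21). B9d1 and Tmem231, partners of the tectonics, fell by 1.61 ± 0.28 and 1.72 ± 0.32 (edgeR adjusted p = 0.00914 and 0.0119, the latter call lost without scrambled library 30). Cc2d2a fell by 0.65 ± 0.18 (edgeR adjusted p = 0.0431), a call kept without library 2 and without scrambled library 31 but lost without any other 1. Of 13 tested genes of polycystic and ductal plate disease that act at the cilium 5 fell and none rose (median -0.36), led by Pkhd1, Glis3 and Bicc1, which fell by 1.58, 1.82 and 1.71 (edgeR adjusted p = 0.00276, 0.0032 and 0.00351).

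Markers of bile duct cells moved with the fallen cilium genes. Beside 8.28% of all tested genes that fell and 5.82% that rose, 13 of 16 cholangiocyte markers fell and 1, Krt23, rose. Their summed level was 234 to 258 CPM in libraries 2, 3 and 2600 against 598 to 741 CPM. None of the 16 was at 0. Of 10 markers of multiciliated epithelium 4 could be tested and 2 fell. The summed level of the 10 was 1.10 to 2.48 CPM in libraries 2, 3 and 2600 against 6.78 to 10.7 CPM. Foxj1 alone made up most of that sum in every library other than library 3. It stood at 0.945, 0.288 and 1.41 CPM against 4.62, 7.30 and 6.69 CPM, so the sum mainly repeats the fall of Foxj1. The 2 that fell, Foxj1 and Capsl, are also counted in the list of the multiciliated programme, and Pkhd1 and Bicc1 stand in both the cholangiocyte list and the list of duct disease genes, so these counts are not separate. Of 11 stellate cell and fibroblast markers 8 fell, with sums of 459 to 816 CPM against 1011 to 1428 CPM. Of 9 hepatocyte markers 4 rose and none fell. The 7 male germ cell markers, from a tissue rich in axonemal transcripts, summed to 0 CPM in libraries 2, 3 and 2600 and to at most 0.0291 CPM in a scrambled library. The part of these cell types in the changes of the members was not tested.

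**Figure D5:**
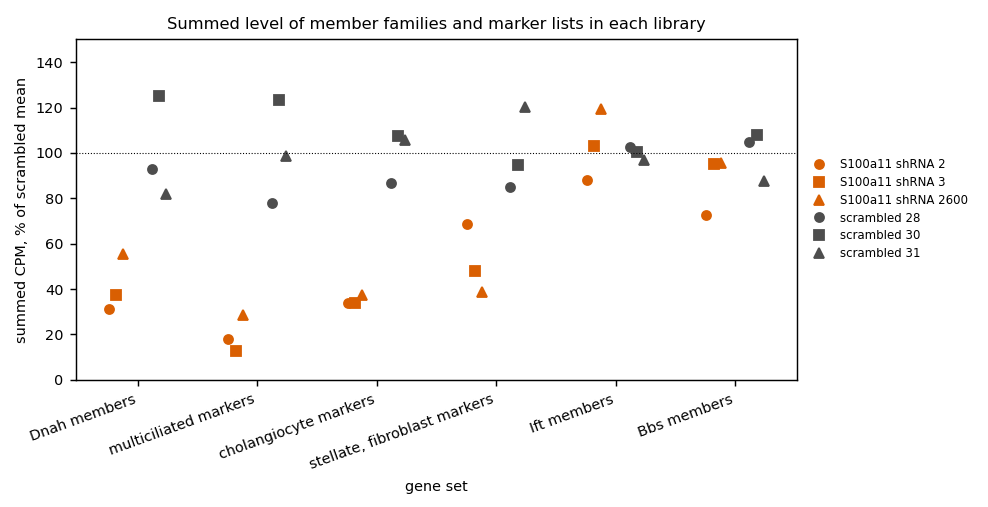
Summed CPM of 3 member families and 3 marker lists in each library, as a percentage of the scrambled mean (dotted line at 100). The Dnah, multiciliated, cholangiocyte and stellate sums of libraries 2, 3 and 2600 lie below all scrambled points. The Ift and Bbs sums overlap with the scrambled points. Most of the multiciliated sum is Foxj1 in every library other than library 3.

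The libraries also differed as a whole. Over all 19352 tested genes 1602 fell and 1126 rose, a split that became 1980 and 816 with upper-quartile factors and 3970 and 397 with library totals alone, where the all-gene median log2 change was -0.32. Set against that median, the class medians with library totals were -0.95 and -0.33, beside -0.95 and -0.30 with TMM factors. The non-coding gene Gm26917 took 3.99% to 10.8% of counts in libraries 2, 3 and 2600 and 3.16% to 4.42% in the scrambled libraries. Its part in the changes of the members was not tested.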

How the data were processed

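RNA was extracted from whole liver with Trizol and a Zymo kit, and made into strand-specific libraries after removal of ribosomal RNA, per the labels' protocols. The deposited table gives raw counts for each Ensembl gene, with a gene length in bases beside them. The build is mm10 per the submitters' processing notes. Aligner, counter and strandedness of counting: not given in the sources used here.

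Members were the protein-coding genes whose symbols match the 6 family names with a number. Counts of all 43346 genes were filtered with filterByExpr (minimum count 10, minimum total 15), which kept 19352 genes and at least 99.95% of counts. They were compared in R 4.3.3 with edgeR 4.0.16 (TMM factors, quasi-likelihood F test, Benjamini-Hochberg adjustment over all tested genes, threshold 0.05), 3 libraries against 3. Scaling factors by TMM ran from 1.10 to 1.19 for the scrambled group and from 0.822 to 0.932 for the other. CPM use library totals scaled by these factors, and TPM were computed from the counts and the deposited gene lengths without these factors. No pair of libraries agreed within counting noise (chi-square per gene at least 48.4). The procedure was tested on simulated data.

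The members and lists were chosen with earlier results of these data known. Genes named by rule were S100a11, every member past the threshold, in each family the 2 tested members with the smallest p and the one with the highest level per length, and in each list the 3 tested genes with the smallest p. A few genes chosen by this rule are left out and not reported here. Other genes were named after their values were seen. Exon overlaps used GENCODE M21, in which 58 of the 59 member genes were found, 36 with the coordinates of the deposited table. Promoters came from RefSeq.

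Alternatives were RLE and upper-quartile factors, library totals, no filter, at least 1 CPM in 3 libraries, protein-coding genes only, DESeq2 1.42.0, voom in limma 3.58.1, a threshold of 0.1, and leaving out each library. After seeing the data, the legacy quasi-likelihood fit was added. Python code ran under python 3.11.15, pandas 2.3.3, numpy 2.4.6 and matplotlib 3.10.9.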

Additional observations from a re-analysis of the deposited data

How the results depend on the processing

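All 17 members past the threshold also passed with RLE factors, upper-quartile factors, library totals, no filter, DESeq2, voom, protein-coding genes only and the legacy fit. A threshold of 0.1 on the same fit keeps them by definition. With at least 1 CPM in 3 libraries 14 motile members were tested, 13 of the 17 passed, the other 4 were not tested (Cfap61, Cfap70, Dnah7c and Dnah3), and 1 motile member was higher. With library totals 13 transport members were lower, 13 were called in all, and the motile and transport medians were -1.27 and -0.65. Over all genes 4367 were then called, 3970 lower and 397 higher, and a threshold of 0.1 called 4206, of which 1819 were higher.

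Leaving out each library in turn, 9 to 16 of the 17 passed, and Cfap44, Cfap69, Dnah1, Dnah3, Dnah5, Dnah6, Dnah7b and Nphp4 passed each time. Motile members called lower ran from 6 (without library 3) to 11, and called higher from 1 to 2. Transport members called ran from 1 to 8, lower from 1 to 7 and higher from 0 to 1. The motile median ran from -1.36 to -0.55 (without scrambled library 30) and the difference between the class medians from -1.04 to -0.32. All genes called ran from 724 to 4176, lower from 503 to 2370 and higher from 221 to 1806. S100a11 passed with library totals (-1.90), with voom (-1.89) and at a threshold of 0.1 (-1.57), and without a library its change ran from -2.75 to -1.22. The cause of these shifts was not tested.

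The sign of Bbs2 turned with upper-quartile factors (-0.029), library totals (-0.31), and without library 3, library 2600 or scrambled library 31. Leaving out single libraries it ran from -0.127 to 0.27. That of Ift20 turned with upper-quartile factors (-0.007), library totals (-0.261), and without library 2 or scrambled library 30 (range -0.071 to 0.227). No paired analysis was possible because the groups share no replicate number. With 6 to 13 counts behind Cfap61 and Dnah7c in libraries 2, 3 and 2600, and 4 to 7 behind Dnah3 in the scrambled libraries, depth limits these changes.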

Other observations

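Hedgehog signalling runs through the primary cilium. Of 19 tested genes of the pathway 4 fell and 2 rose in the libraries labelled S100a11 shRNA, with a median log2 change of -0.18. Of all tested genes 8.28% fell and 5.82% rose. Hhip, which binds and sequesters Hedgehog ligands, stood at 1.32, 2.93 and 4.12 CPM in libraries 2, 3 and 2600 against 0.386, 0.247 and 0.254 CPM. The groups did not overlap, and it rose by 3.22 ± 0.46 on the log2 scale (edgeR adjusted p = 0.00539). Evc and Evc2, which anchor at the base of the cilium and pass on the signal of Smo, fell by 1.19 ± 0.22 and 1.15 ± 0.25 (edgeR adjusted p = 0.0117 and 0.0183). The Evc call was lost without scrambled library 30, and that of Evc2 without library 3, scrambled library 30 or scrambled library 31. The response genes Gli1 and Ptch1 had changes of -1.01 and 0.40 that did not pass.

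Genes of the centriole and basal body, from which cilia grow, were also counted: of 23 tested 2 fell (8.70%, near the 8.28% of all tested genes) and 3 rose, against 5.82% of all, with a median of -0.01. Ninl fell by 1.29 ± 0.23 (edgeR adjusted p = 0.0109, a call lost without scrambled library 30) and Cep192 by 0.55 ± 0.14 (edgeR adjusted p = 0.0317, lost without library 3 or any 1 scrambled library). Fbf1, of the distal appendages, stood at 161, 413 and 340 CPM against 93.4, 155 and 71.5 CPM and rose by 1.51 ± 0.37 (edgeR adjusted p = 0.0304). That call was lost with library totals and without library 3, library 2600, scrambled library 28 or scrambled library 31. Of 6 tested RFX factors 1, Rfx4, rose by 0.95 ± 0.20 (edgeR adjusted p = 0.0185), a call lost with library totals and without library 3, scrambled library 30 or scrambled library 31, and none fell. Of the marker lists for other cells, lymphocyte markers and smooth muscle or mesothelial markers had no change by the test (7 and 6 tested), macrophage markers had 4 lower and 1 higher of 8, and endothelial markers 1 lower and 1 higher of 7.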
